A study of Rattus norvegicus with 6 samples.

Results

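Monocyte-like cells were picked out of single-cell gene counts of rat cerebral hemisphere by a rule on their transcripts, and were compared between rats poisoned with carbon monoxide and control rats. The rule kept barcodes of at least 1000 UMIs (unique molecular identifiers, one per captured transcript) with at least 3 of the genes Plac8, Fcnb, G0s2, Ccr2, Lyz2 and Itgal detected. It left out barcodes with more than 1 of the border macrophage genes Mrc1, Cd163, F13a1 and Pf4, more than 1 of the microglia genes P2ry12, Tmem119, Gpr34 and P2ry13, or any of the lymphocyte genes Cd3e, Cd3d and Cd79a. It also left out barcodes with 10 or more UMIs of S100a8 plus S100a9, taken here to mark neutrophils, and those with 10 or more UMIs of Cd74 together with Slpi. Ccr2 and Cd79a were not analysed here, so 5 of the 6 genes for inclusion were used. Of 34039 barcodes of at least 1000 UMIs (42293 in all), 275 were members, 177 in the control group and 98 in the carbon monoxide group.

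The 6 droplet libraries (10x Genomics) came from 3 rats that breathed 1000 ppm carbon monoxide for 40 min and then 3000 ppm for 20 min (CO) and from 3 negative control rats (NC). Poisoning was accepted when consciousness was impaired and carboxyhemoglobin, the blood pigment with carbon monoxide bound, was high. Neither strain, age nor the time from gas to dissection is given in the labels used here, and they describe no washing of blood from the vessels, so cells inside vessels can be among the members. Tissue was dissociated with trypsin, and the labels mention no sorting of cells. The libraries held 5108 to 6308 barcodes of at least 1000 UMIs and 39494470 to 47322264 UMIs each. The mean square between libraries of a group was 1.02 times that within libraries in NC and 1.06 times in CO, averaged over genes, which is what parts of 1 pool of cells would give. Each group was therefore counted as 1 sample, no p-value is given for any difference, and the 95% intervals cover counting error only. No member barcode occurred in more than 1 library, and 1 barcode of all was shared over the 15 pairs of libraries.

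Monocytes are white blood cells made in bone marrow that circulate in blood and enter tissue, where they can become macrophages. Classical monocytes carry adhesion and chemoattractant receptors for leaving the vessel, and non-classical monocytes patrol the vessel wall. In rats the subsets are told apart by CD43, the product of Spn, which is low on classical and high on non-classical monocytes. The healthy brain holds few of them outside its vessels, and its resident phagocytes are microglia in the tissue and macrophages along its borders. The study's title concerns the cytokine CLCF1, the transcription factor NF-κB and efferocytosis, the clearance of dying cells by phagocytes.

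The label held for most NC members and for a minority of the CO members. The members were divided by 8 microglia genes that the rule did not use (among them Sparc, Olfml3, C1qa, C1qb, C1qc, Trem2 and Slc2a5), and their counts fell into 2 heaps. In NC 155 of 177 members had fewer than 3 of these genes detected, and in CO 37 of 98 did. The share with 3 or more was 12.4% in NC (exact Clopper-Pearson interval 7.96 to 18.2) and 62.2% in CO (51.9 to 71.8). It was 8.96%, 7.69% and 20.7% in the NC libraries, against 58.6%, 70.3% and 56.3% in the CO libraries, with no overlap. Among oligodendrocytes, given for comparison, 14.5% of NC and 9.67% of CO barcodes had 3 or more. Their counts also had a second rise, with 105 and 121 NC barcodes at 6 and 7 genes against 88 at 5, so these shares are a comparison only. The list of 18 microglia markers includes the 8 genes of the division, so its sums are a description. In the members with 3 or more, the 18 listed microglia markers summed to 8689 CPM (counts scaled to the same library total, in units of 1e+06) in NC and 19760 CPM in CO, against 763 and 859 CPM in the others.

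**Figure D1:**
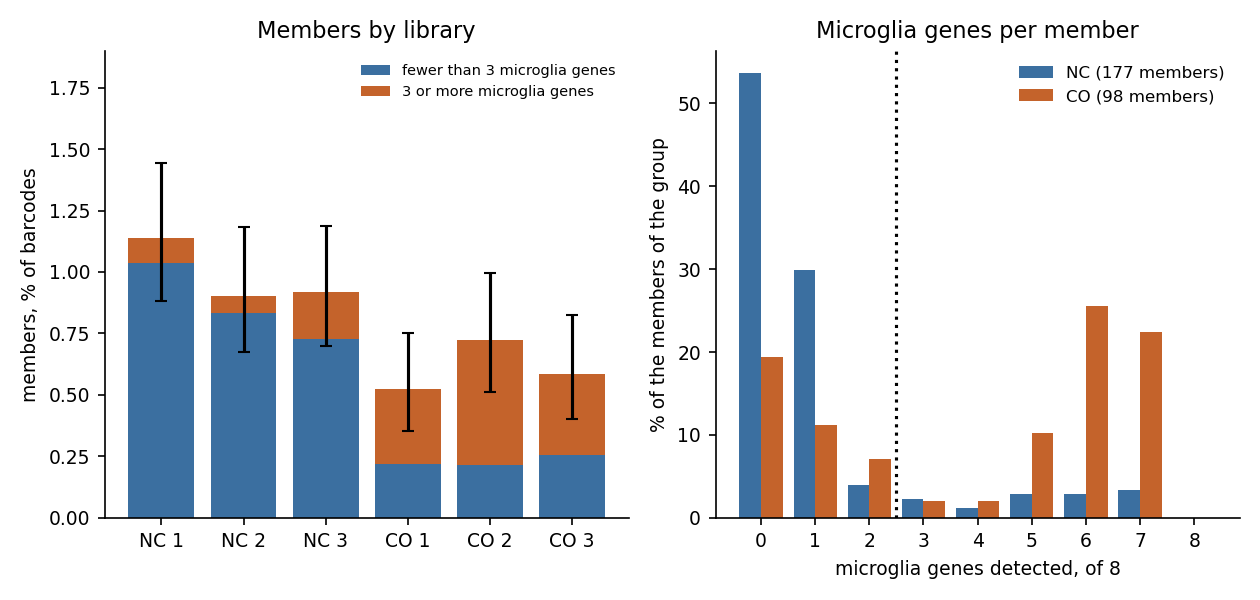
Left, members as a percentage of the barcodes of at least 1000 UMIs in each library, divided by the number of microglia genes detected, with exact 95% intervals of the total. Right, the percentage of the members of each group with 0 to 8 of 8 microglia genes detected; the dotted line marks the division at 3. CO members have a second heap at 5 to 7 genes, which holds few NC members.

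The CO members with 3 or more microglia genes met the rule mainly through Plac8, Lyz2 and Itgal. Plac8 and Lyz2 were detected in all 61 of them and Itgal in 47, whereas G0s2 was detected in 10 and Fcnb in 7. Lyz2 was detected in 94.9% of NC and 95.9% of CO microglia (barcodes with at least 3 of the rule's microglia genes). Plac8 was detected in 15.3% of NC microglia and 43.2% of CO microglia, at median depths of 5886 and 6660 UMIs, and in 2.37% and 2.54% of oligodendrocytes. These members are described below as those with microglia genes, and no monocyte name is given to them.

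Of the 192 members with fewer than 3 microglia genes, nearly all carried Plac8 and Lyz2. Plac8 was detected in 148 of 155 NC and 36 of 37 CO members, and Lyz2 in 147 and 37. G0s2, a regulator of fat breakdown, was detected in 122 NC and 22 CO members, Fcnb, which encodes a ficolin of the lectin complement pathway, in 30 and 19, and Itgal, the alpha chain of the integrin LFA-1, in 99 and 15. These 5 genes chose the members, so their levels are a description. Among barcodes that met every other condition, 98 NC and 77 CO barcodes had 3 rule genes, just inside the threshold. Another 392 NC and 556 CO barcodes had 2 rule genes, just outside it, and of these 102 NC and 41 CO barcodes had fewer than 3 microglia genes.

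Genes outside the rule set these members apart from the other barcodes. S100a4, a calcium-binding protein of motile cells, stood at 2322 CPM in them and 42.1 CPM in the other barcodes. Napsa, which encodes an aspartic protease, stood at 927 against 8.49 CPM. Spn stood at 254 against 2.46 CPM, and Adgre4, an adhesion G protein-coupled receptor of mononuclear phagocytes, at 444 against 2.84 CPM. By group, Spn stood at 314 CPM in NC and 140 CPM in CO members. Of 25 monocyte markers outside the rule, 23 were detected in NC and 25 in CO, with 15800 and 22030 CPM in sum. The 15 non-classical monocyte markers went the other way. They summed to 6224 to 7090 CPM in the NC and 3394 to 5557 CPM in the CO libraries, with no overlap. Spn is among them, as are Itga4, Cx3cr1, Fcgr3a, Pou2f2 and Klf2, which are reported below. The part of this difference between subsets in the gene ratios was not tested. Killer cell markers summed to 25.6 and 29.6 CPM, with 15 of 16 at 0, among them Nkg7, Prf1 and Ncr1.

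Monocyte-like members with fewer than 3 microglia genes made up a smaller share of CO than of NC barcodes. The share was 1.04%, 0.834% and 0.729% in the NC libraries, against 0.217%, 0.215% and 0.256% in the CO libraries. All 3 CO values lay below all 3 NC values. Pooled, it was 0.864% in NC (155 of 17943 barcodes, interval 0.734 to 1.01) and 0.230% in CO (37 of 16096, 0.162 to 0.317), a ratio of 0.266 (0.181 to 0.383). Over all members the share was 0.986% in NC and 0.609% in CO, a ratio of 0.617 (0.477 to 0.794). Members with microglia genes went the other way, with 22 barcodes (0.123%) in NC and 61 (0.379%) in CO, a ratio of 3.09 (1.87 to 5.29). Microglia were 22.3% of NC and 22.7% of CO barcodes, border macrophages 2.21% and 1.72%, and oligodendrocytes, which are part of the denominator of every share, 20.0% and 8.55%.

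Depth differed between the groups as well. The median was 4271 UMIs in NC members with fewer than 3 microglia genes and 10212 UMIs in CO members of the same kind. With every barcode thinned to 1000 UMIs before the rule was applied, 107 NC (0.596%) and 46 CO barcodes (0.286%) met it with fewer than 3 microglia genes, a ratio of 0.479 (0.332 to 0.683). Thinning also lowers the number of microglia genes detected, so barcodes can cross the division. Neutrophils, defined by 10 or more UMIs of S100a8 plus S100a9, numbered 1 in NC and 60 in CO, so that the upper limit on these genes removed barcodes almost only from CO.

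Clustering of the members without the rule's genes gave 6 groups, and the mixture of clusters among members with fewer than 3 microglia genes differed between NC and CO. Cluster 0 was led by Clec4e, Cd8a, Defb14, Zc3h12d, Fpr2 and Il1rn, had an average of 6.66 of the non-classical monocyte markers detected, and held 109 NC (70.3%) and 13 CO members (35.1%). Cluster 2 held 30 NC (19.4%) and 13 CO members (35.1%), with Ass1, Ccl2, Cd300lb, Mgst2 and Vcan among its 10 leading genes and 5.02 non-classical markers on average. Il2ra, Ikzf3, Il1rl1 and Rora also led cluster 2 but were carried by 4 to 7 of its 49 cells. Clusters 3, 4 and 5 held 16 NC and 11 CO members and were led by genes of endothelial cells (Ptprb, Podxl and Sox17), oligodendrocytes (Ugt8 and Tmeff2) and astrocytes (Slc4a4 and Slc1a2). Their median depth of 12380 to 20660 UMIs was above the 4310 UMIs of cluster 0 and the 7183 UMIs of cluster 2. Cluster 1 held 68 members with microglia genes and none of the others. These genes made the clusters, so cluster sizes and leading genes are a description.

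**Figure D2:**
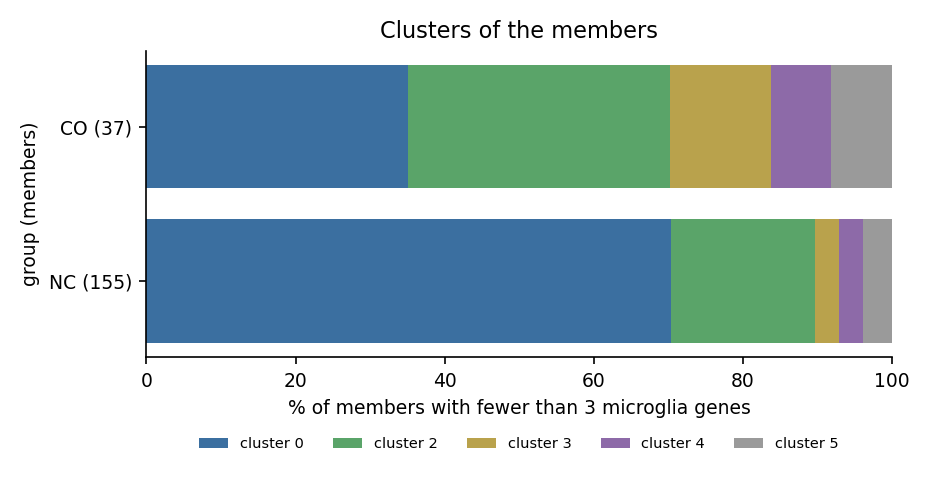
Percentage of the members with fewer than 3 microglia genes in each cluster, for NC (155 members) and CO (37 members). Cluster 0 takes 70.3% of NC and 35.1% of CO members.

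Over all 275 members, genes stood higher and lower in CO in similar numbers. Of 4878 genes compared (at least 30 counts and a mean of at least 5 on the log2 CPM scale), 558 stood 2-fold or more higher in CO, which is 11.4%, and 506 lower, which is 10.4%. All CO libraries lay above all NC libraries for 13.9% and below for 14.9%. Among the 12 highest genes were Ch25h (3.92, interval 3.44 to 4.44), Il1a (log2 ratio 4.57, interval 3.80 to 5.46) and Trpc6 (4.08, interval 3.16 to 5.17), which also led the microglia-gene cluster. Ch25h encodes cholesterol 25-hydroxylase and Il1a interleukin 1 alpha. Thbs1, Cxcl10, Gria2, Dhrs9, Il1r2, Adamts9, Atp8a2, Pdgfb and Cttnbp2nl completed the 12, with log2 ratios from 3.74 to 5.65. Without the members with microglia genes, Ch25h was lower in CO, at -1.21. The 12 lowest held several myelin-cell genes, among them Klk6, Gjb1, Nkx6-2, Ugt8 and Plekhb1, with Rgs5 of mural cells, Zc3h12d, Gnai1, Cald1, Josd2, Fabp7 and Il1rapl1. Their log2 ratios ran from -5.52 to -3.70, and oligodendrocyte markers summed to 9607 CPM in NC and 3394 CPM in CO members. Among members with microglia genes, 3477 genes were compared, 30.6% stood 2-fold or more higher in CO and 14.1% lower, and libraries did not overlap for 20.5% above and 6.38% below. The 22 NC members of that kind held 27540 CPM of oligodendrocyte markers and the 61 CO members 418 to 556 CPM by library. The part of these other cells in each ratio was not tested, and the comparisons that follow use the 192 members with fewer than 3 microglia genes.

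In the members with fewer than 3 microglia genes, 4864 genes were compared and 643 stood 2-fold or more higher in CO (13.2%) and 649 lower (13.3%). All 3 CO libraries lay above all 3 NC libraries for 9.93% of the genes and below for 15.2%. With 37 CO members, of which 12, 11 and 14 were in the 3 libraries, single cells can carry a ratio, so the number of members with a UMI is given for the genes that matter most. Other measures moved with the groups beside depth and the mixture of clusters. At least 2 neutrophil markers were detected in 9 NC and 15 CO members, mostly Trem1 and Csf3r, which monocytes also express. Mmp8, Mmp9, Ngp, Ltf, Retnlg and Mpo were at 0 in all of them, and Il1r2 and Cxcr2 were detected only in CO members with 2 or more neutrophil markers. Trem1, Csf3r, Il1r2 and Cxcr2 are themselves among the markers that define this class, so their detection in it is a description. Markers of endothelial cells, astrocytes, mural cells or oligodendrocytes (at least 3 endothelial, astrocyte or mural genes, or at least 6 oligodendrocyte genes) were held by 19 NC and 11 CO members. The 8 astrocyte markers summed to 40.5 to 678 CPM in the NC and 14.7 to 5288 CPM in the CO libraries. Neutrophil markers outside the rule summed to 108 to 156 CPM in NC and 287 to 521 CPM in CO libraries. Mural markers summed to 72.9 to 1032 CPM in NC and 0 to 35.2 CPM in CO libraries, erythroid markers to 717 to 2112 CPM in NC and 189 to 243 CPM in CO libraries and choroid plexus or ependymal markers to 1016 to 1462 CPM in NC and 242 to 375 CPM in CO libraries. Border macrophage markers outside the rule summed to 324 to 1125 CPM in NC and 677 to 4039 CPM in CO libraries, with overlap. The part of these cells and of free RNA in the ratios was not tested beyond leaving members out, and values without the neutrophil-marker or other-lineage members are given for some genes and lists only.

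Several genes of blood clotting and extracellular matrix were higher in CO. Of 10 compared, 5 stood 2-fold or more higher and 0 lower in CO, beside 13.2% and 13.3% of all genes (median log2 ratio 1.22). Vcan, which encodes the matrix proteoglycan versican and marks classical monocytes, measured 187, 36.4 and 112 CPM in the NC libraries against 1222, 891 and 1389 CPM in the CO libraries. All CO libraries were above all NC libraries, with a log2 ratio of 3.33 (3.01 to 3.66) and UMIs in 14 of the 155 NC members and 18 of the 37 CO members. Fn1, fibronectin, measured 915, 429 and 478 CPM in the NC libraries against 1207, 3655 and 3037 CPM in the CO libraries, a log2 ratio of 2.08 (1.92 to 2.23). Thbs1, the matrix protein thrombospondin 1, had no count in NC but 20, 46 and 68 counts in the CO libraries, in 12 of 37 members, which is at least 83.6-fold higher with a floor of 3 counts over the NC group. As a log2 ratio this limit is 6.39, and 5.67 without NC replicate 1. No NC library held a count, so that change reflects the smaller NC total set against the floor. F5, coagulation factor V, stood at 9.74 CPM in NC and 93.4 CPM in CO (log2 ratio 3.26, interval 2.15 to 4.57). Vcan stood at 3.96 without NC replicate 1. F5 stood at 2.52 without CO replicate 3.

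The clusters differed in these genes. Within cluster 2 Vcan had 55 NC and 303 CO counts (log2 ratio 2.88) and Fn1 154 and 514 counts (2.16), and 4 of the 6 list genes compared there were at least 2-fold higher, beside 17.6% of all genes. Within cluster 0 Thbs1 was at 0 in both groups, Vcan had 3 and 0 counts, and Fn1 was lower in CO (-1.43, 111 and 9 counts). Without members with neutrophil markers, Vcan stood at 3.39, Fn1 at 2.39 and Thbs1 had 29 CO counts in 3 members. Without them 2 of 9 list genes stood 2-fold or more higher, beside 12.2% of all genes. The median of the list was 0.32 without them, and from 0.53 to 0.99 without NC replicate 1, NC replicate 2, CO replicate 1, CO replicate 2 or CO replicate 3.

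**Figure D3:**
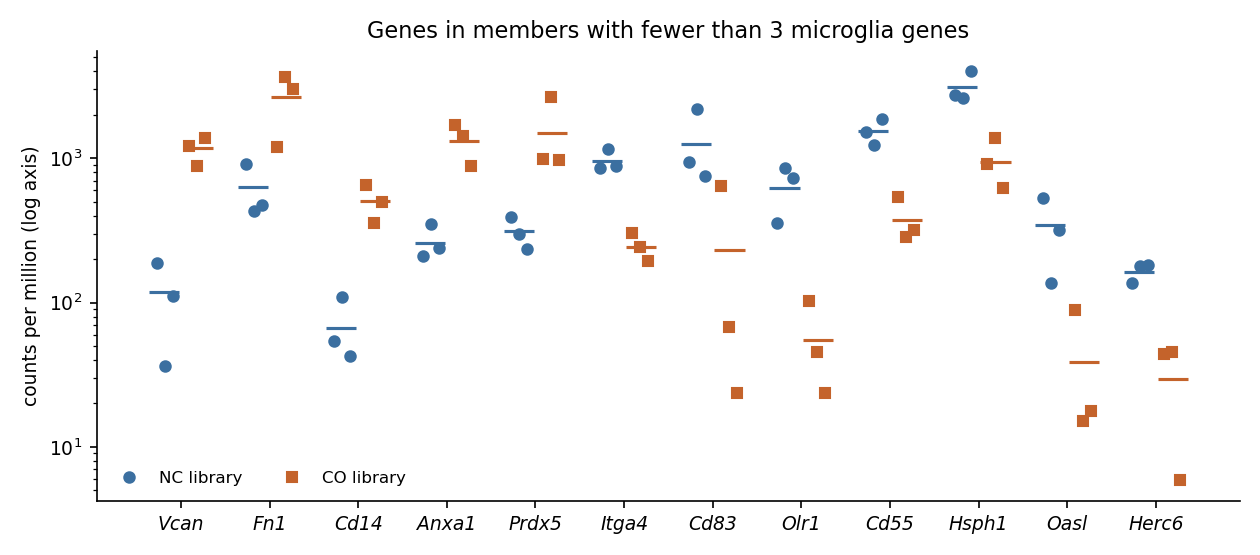
CPM on a log axis for 12 genes in the members with fewer than 3 microglia genes; circles are NC libraries, squares CO libraries, and bars the value of the summed group. Vcan, Fn1, Cd14, Anxa1 and Prdx5 lie higher in every CO library, and the other 7 genes lower.

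Receptors for attachment and chemoattraction differed in both directions. Of 17 compared, 4 stood 2-fold or more higher and 3 lower in CO, beside 13.2% and 13.3% of all genes (median log2 ratio -0.51). Itga4, the alpha 4 chain of the integrin VLA-4 that binds endothelial VCAM1, measured 851, 1158 and 886 CPM in the NC libraries against 302, 242 and 193 CPM in the CO libraries, so all CO values lay below all NC values (log2 ratio -1.98, interval -2.29 to -1.69). Its ratio was -0.97 within cluster 0 and -3.62 within cluster 2. Alcam, an adhesion molecule of leukocytes and endothelium, stood at 1.37 (1.05 to 1.70).

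Among receptors for chemoattractants, 8 were compared. Of these 3 stood 2-fold or more higher and 2 lower in CO, beside 13.2% and 13.3% of all genes (median log2 ratio -0.44). Cx3cr1, the fractalkine receptor of non-classical monocytes and microglia, had 26, 21 and 9 counts in the NC libraries against 0, 0 and 0 in the CO libraries. That is at least 9.97-fold lower in CO with a floor of 3 counts over the group, a log2 ratio of -3.32 as a limit, which was -2.50 without CO replicate 3. No CO library held a count, so that change reflects the smaller CO total set against the floor. Ccr1, a receptor for inflammatory chemokines, measured 38.1, 85.0 and 19.3 CPM in the NC libraries against 95.7, 279 and 352 CPM in the CO libraries (log2 ratio 2.44, interval 1.89 to 3.01) and was seen in 6 of the 155 NC members and 16 of the 37 CO members, with 21 of its 38 NC counts in 1 member. Ccr1 stood at 3.14 without NC replicate 2. Cxcr4, the receptor that retains monocytes in bone marrow, measured 1448, 1449.7 and 1622 CPM in the NC libraries against 883, 687 and 779.7 CPM in the CO libraries, with no overlap (log2 ratio -0.94, interval -1.12 to -0.77). Cxcr4 stood at -1.11 without CO replicate 1. Ptafr, the platelet-activating factor receptor, stood at 1.35 (0.70 to 2.01). Ptafr stood at 2.10 without NC replicate 1. Among 7 chemokine ligands compared, none stood 2-fold higher and 3 stood 2-fold lower, beside 13.2% and 13.3% of all genes. Their median log2 ratio was -0.29, and -1.35 without CO replicate 1. Ccl3, a ligand of Ccr1, was the most abundant at 3172 CPM in NC and 2823 CPM in CO (log2 ratio -0.17, interval -0.27 to -0.07). Its sign depended on which members and libraries were kept. Ccl3 stood at -0.91 without CO replicate 1, at 0.21 without CO replicate 3, at 0.44 without members with neutrophil markers, at 0.69 without members with other-lineage markers and at 1.27 within cluster 0. Ccl2, the ligand of the receptor Ccr2, stood at 0.60 (0.27 to 0.93), and 125 of its 174 NC counts came from 1 member. Ccl2 stood at 3.89 without NC replicate 2 and at -0.63 without CO replicate 2.

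Among sensors of microbial and damage signals, Cd14, the co-receptor for lipopolysaccharide, was the member that differed most. Cd14 measured 54.0, 109 and 42.4 CPM in the NC libraries against 655, 355 and 498 CPM in the CO libraries, so every CO library lay above every NC library (log2 ratio 2.91, interval 2.48 to 3.36). UMIs were found in 21 of the 155 NC members and 25 of the 37 CO members. The ratio stayed on the same side within cluster 0 (3.87) and cluster 2 (2.16) and without members with neutrophil markers (2.77). Of 13 compared, 3 stood 2-fold or more higher and 0 lower in CO, beside 13.2% and 13.3% of all genes (median log2 ratio -0.12). Tlr2, a receptor for bacterial lipoproteins, stood at 1.25 (0.68 to 1.83) and Trem1, an amplifying receptor of myeloid cells, at 1.25 (0.79 to 1.70). Tlr2 stood at 0.91 without NC replicate 1. Trem1 stood at 1.00 without NC replicate 3 and 0.78 without CO replicate 2. Without members with neutrophil markers Trem1 stood at 0.81. Trem1 is itself among those markers, so this value is a description.

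Inflammatory cytokine transcripts differed gene by gene. Il1b, interleukin 1 beta, measured 2293, 3138 and 3913 CPM in the NC libraries against 4615, 3006 and 2392 CPM in the CO libraries (log2 ratio 0.09, interval 0.00 to 0.19), and the groups overlapped. Il1rn, the interleukin 1 receptor antagonist, stood at 92.5 CPM in NC and 339.5 CPM in CO (log2 ratio 1.88, interval 1.47 to 2.29). UMIs of Il1rn were in 43 of the 155 NC members and 17 of the 37 CO members, but 64 of its 149 CO counts came from 1 member. Il1r2, a decoy receptor for interleukin 1, had no NC count and 30 CO counts in 7 members, all with neutrophil markers. Il1r2 is itself among those markers. Pycard, the adaptor ASC of the inflammasome, stood at -1.28 (-1.51 to -1.06) and at -0.76 without members with other-lineage markers, and Nlrp3, an inflammasome sensor, at 0.93 (0.63 to 1.22). Nlrp3 stood at 1.20 without NC replicate 2 and 1.11 without CO replicate 3. Of 12 listed genes compared, 2 stood 2-fold or more higher and 1 lower, beside 13.2% and 13.3% of all genes (median log2 ratio -0.05).

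Of 24 NF-κB subunits, regulators and targets compared, 1 was 2-fold or more higher and 3 lower, beside 13.2% and 13.3% of all genes. Nfkb1, the p105 and p50 subunit, stood at 386 CPM in NC and 223 CPM in CO (log2 ratio -0.79, interval -1.13 to -0.46). Nfkb1 stood at -1.04 without CO replicate 3. Rela, the p65 subunit, stood at -0.15 (-0.88 to 0.55), with 54 NC and 26 CO counts. Nfkbia, which encodes the inhibitor IκBα and is itself induced by NF-κB, measured 1702, 2758 and 2346 CPM in the NC libraries against 2444, 2107 and 1061 CPM in the CO libraries, a log2 ratio of -0.30 (-0.42 to -0.18) with overlapping groups. Without members with neutrophil markers Nfkbia stood at 0.43 with every CO library above every NC library, and without CO replicate 3 at 0.14. Bcl3, an atypical IκB, was higher in CO, at a log2 ratio of 2.80. Cd83, a surface protein of activated antigen-presenting cells, measured 937, 2195 and 755 CPM in the NC libraries against 648, 68.0 and 23.4 CPM in the CO libraries (log2 ratio -2.45, interval -2.76 to -2.15). Cd83 stood at -1.83 without NC replicate 2, -4.96 without CO replicate 1 and -1.70 without CO replicate 3. UMIs of Cd83 were in 58 of the 155 NC members and 11 of the 37 CO members, and 62 of its 101 CO counts came from 1 member. Bcl2a1, a survival factor and NF-κB target, measured 1283, 2470.1 and 2014 CPM in the NC libraries against 692, 491 and 439.7 CPM in the CO libraries (log2 ratio -1.81, interval -2.02 to -1.61), with every CO value below every NC value. Nfkbid, another atypical IκB, had 33 NC and 3 CO counts (-2.56, interval -4.90 to -0.88). Nfkbid stood at -3.69 without CO replicate 1 and -1.74 without CO replicate 3. It was below the expression filter and is not among the 24 genes compared.

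Clcf1, the cytokine named in the study's title, was low in these members and lower in CO. It had 16, 17 and 9 counts in the NC libraries against 0, 1 and 2 in the CO libraries, a log2 ratio of -2.90 (-5.24 to -1.26) that rests on 3 CO counts, and was seen in 22 of the 155 NC members and 3 of the 37 CO members. Clcf1 stood at -3.67 without CO replicate 3. Within cluster 0 it had 36 NC and 0 CO counts. In microglia its log2 ratio was -2.53. Il6st, the shared signal chain gp130 through which CLCF1 acts, had 9 NC and 22 CO counts (2.19, interval 1.02 to 3.50). Il6st stood at 2.91 without NC replicate 2. Stat3, the transcription factor downstream of gp130, stood at 0.83 (0.48 to 1.17). Clcf1 and Il6st were below the expression filter in these members, and Clcf1 was below it in microglia. Of 7 genes of this list compared, 1 stood 2-fold or more higher and 0 lower, beside 13.2% and 13.3% of all genes. The higher gene was Lifr, which had no count in clusters 0 and 2. Without members with other-lineage markers 0 of 5 stood 2-fold higher and 0 lower, beside 11.1% and 20% of all genes. In all members with microglia genes included, Clcf1 stood at -1.93 (-3.09 to -0.92) and Nfkb1 at 1.14 (0.95 to 1.34), so the direction of Nfkb1 was the opposite there.

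Genes of efferocytosis were mixed. Of 20 compared, 5 stood 2-fold or more higher and 3 lower in CO, beside 13.2% and 13.3% of all genes (median log2 ratio 0.15). Without members with other-lineage markers 3 of 15 stood 2-fold higher and 7 lower (median -0.64), beside 11.1% and 20% of all genes. Olr1, the scavenger receptor LOX-1, measured 356, 850.4 and 736 CPM in the NC libraries against 103, 45.3 and 23.4 CPM in the CO libraries, with no overlap (log2 ratio -3.51, interval -4.17 to -2.92), and was seen in 60 of the 155 NC members and 8 of the 37 CO members. Olr1 stood at -4.32 without CO replicate 1. Within cluster 0 Olr1 had 435 NC and 1 CO counts, and without members with other-lineage markers it had 487 and 1 counts. Anxa1, which encodes the phosphatidylserine-binding protein annexin A1 and is induced by glucocorticoids, measured 209.6, 348 and 239 CPM in the NC libraries against 1715, 1435 and 885 CPM in the CO libraries, with all CO values above all NC values (log2 ratio 2.33, interval 2.10 to 2.56). Its ratio was 4.37 within cluster 0 and 1.18 within cluster 2, and 3.33 without members with other-lineage markers. Msr1, scavenger receptor A, had 6 NC counts, 5 of them in 1 member, and 36 CO counts (3.49, interval 2.23 to 5.03). Msr1 stood at 5.35 without NC replicate 1. Mertk, a receptor kinase that recognises dying cells, stood at 0.78 (-0.10 to 1.66) from 25 and 23 counts and at 2.08 without NC replicate 3, and its relative Axl had 4 and 6 counts. Tyrobp, the signalling adaptor of several phagocyte receptors and the most abundant of the list, stood at 2655 CPM in NC and 2805 CPM in CO (log2 ratio 0.08, interval -0.02 to 0.18).

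Metallothioneins were higher in CO, and other glucocorticoid-induced genes differed in both directions. Of 18 compared, 6 stood 2-fold or more higher and 2 lower in CO, beside 13.2% and 13.3% of all genes (median log2 ratio 0.03). Without members with other-lineage markers 4 of 16 stood 2-fold higher and 5 lower (median -0.46), beside 11.1% and 20% of all genes. In cluster 0, 2 of 15 stood 2-fold higher and 8 lower (median -1.02), beside 8.07% and 36% of all genes (median -0.51). Mt1, a metal-binding protein, measured 31.8, 36.4 and 50.1 CPM in the NC libraries against 339, 242 and 93.8 CPM in the CO libraries, a log2 ratio of 2.46 (1.87 to 3.09) with every CO library above every NC library. Mt2A had no NC count and 54 CO counts in 12 members, at least 33.7-fold higher with the floor of 3 counts. As a log2 ratio this limit is 5.07, and it was 4.35 without NC replicate 1 and 4.38 without CO replicate 3. The change without NC replicate 1 reflects the smaller NC total set against the floor. Mt1 and Mt2A were also higher in CO microglia, at 1.28 and 2.09. Dusp1, a phosphatase of stress kinases that tissue dissociation also induces, stood at 8558 CPM in NC and 6125 CPM in CO (log2 ratio -0.48, interval -0.55 to -0.42).

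Of the heme, iron and antioxidant genes, 3 of 20 compared were higher by 2-fold or more in CO and 6 lower. Over all genes compared these shares were 13.2% and 13.3%. Hmox1, heme oxygenase 1, the enzyme that itself releases carbon monoxide from heme, measured 194, 202 and 408 CPM in the NC libraries against 132, 22.7 and 52.8 CPM in the CO libraries (log2 ratio -1.95, interval -2.55 to -1.40), so all CO libraries lay below all NC libraries. Hmox1 stood at -2.82 without CO replicate 1. Prdx5, the antioxidant enzyme peroxiredoxin 5, measured 391, 299.6 and 235 CPM in the NC libraries against 994, 2681 and 973 CPM in the CO libraries, with no overlap in the other direction (log2 ratio 2.25, interval 2.04 to 2.46). Prdx5 stood at 1.64 without CO replicate 2. Fth1, the heavy chain of the iron store ferritin, stood at 0.90 (0.86 to 0.95), and Ncoa4, the receptor that delivers ferritin for breakdown, had 59 NC and 5 CO counts (-2.66, interval -4.33 to -1.35). Ncoa4 stood at -4.17 without CO replicate 3. Fth1 stood at 1.05 without NC replicate 2 and 1.04 without CO replicate 2.

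Hypoxia-inducible and glycolytic genes were more often higher than lower, but the leading ones are also genes of other brain cells. Of 25 compared, 6 stood 2-fold or more higher and 3 lower in CO, beside 13.2% and 13.3% of all genes (median log2 ratio 0.26). Slc2a1, the glucose transporter GLUT1 that brain endothelium expresses strongly, measured 111, 97.2 and 104 CPM in the NC libraries against 1479, 967 and 246 CPM in the CO libraries (log2 ratio 3.01, interval 2.67 to 3.37). Without members with other-lineage markers its ratio was 1.64, and that of the stress gene Ndrg1 went from 2.17 to 0.65. Slc2a1 stood at 2.34 without CO replicate 1 and 3.65 without CO replicate 3. Ndrg1 stood at 1.38 without CO replicate 2 and 2.90 without CO replicate 3. Ldha, lactate dehydrogenase A, stood at 337 CPM in NC and 709 CPM in CO (log2 ratio 1.07, interval 0.83 to 1.31). Ldha stood at 0.89 without NC replicate 1, 0.81 without CO replicate 1 and 0.76 without CO replicate 2. Egln1, an oxygen-sensing prolyl hydroxylase that marks HIF for removal, was lower at -1.93 (-2.85 to -1.12).

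Heat shock genes were lower in CO: of 16 compared, 6 were at least 2-fold lower, none was 2-fold higher, and 1 had a log2 ratio above 0 (median -0.80). Over all genes compared 13.3% were at least 2-fold lower and 13.2% higher. Without members with other-lineage markers 4 of 16 were 2-fold lower, beside 20% of all genes (median -0.51). Without members with neutrophil markers 5 of 16 were, beside 19.2% (median -0.63). In cluster 0, 10 of 16 were 2-fold lower, beside 36% of all genes (median -1.03). In cluster 2, 4 of 16 were, beside 21.6%, and 7 had a log2 ratio above 0 (median -0.14). Hsph1, a large chaperone of the HSP110 family, measured 2744, 2599.7 and 4017 CPM in the NC libraries against 913, 1389.5 and 621 CPM in the CO libraries, with no overlap (log2 ratio -1.72, interval -1.87 to -1.57). Hspd1, the mitochondrial chaperonin HSP60, stood at -1.75 (-2.17 to -1.34). Hspa1b, an inducible HSP70 and the most abundant of the list, stood at 5133 CPM in NC and 3748 CPM in CO (log2 ratio -0.45, interval -0.54 to -0.37), a value that is uncertain because reads can be shared with its near-identical copy Hspa1a. In microglia all 16 had log2 ratios below 0 (median -0.28), with none 2-fold lower. Heat shock and immediate early genes also respond to dissociation at warm temperature, and of 25 immediate early genes compared, none was 2-fold higher and 4 were 2-fold lower. Dusp5, a phosphatase of the kinase ERK, was among these at -1.67 (-1.95 to -1.40), and at -0.87 without members with neutrophil markers. Without those members 4 of 25 immediate early genes stood 2-fold higher and 2 lower (median 0.14), beside 12.2% and 19.2% of all genes. Their relation to dissociation was not tested.

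Interferon-stimulated genes were lower in CO across the list. Of 18 genes compared, none had a log2 ratio above 0, 10 were at least 2-fold lower and none was 2-fold higher, with a median of -1.23, beside -0.05 over all genes compared. Over all genes 13.3% were at least 2-fold lower. Oasl, a member of the oligoadenylate synthetase family of antiviral proteins, measured 530.3, 138 and 316 CPM in the NC libraries against 88.3, 15.1 and 17.6 CPM in the CO libraries (log2 ratio -3.15, interval -3.95 to -2.45), with no overlap. Oasl stood at -4.47 without CO replicate 1. Herc6, a ligase that attaches the ubiquitin-like protein ISG15 in rodents, measured 137, 178 and 181 CPM in the NC libraries against 44.2, 45.3 and 5.86 CPM in the CO libraries (log2 ratio -2.46, interval -3.41 to -1.64). Herc6 stood at -1.76 without CO replicate 3. Mx1, an antiviral GTPase, had 49 NC and 2 CO counts (-3.71, interval -6.80 to -1.78), and Ifi44 had 62 and 6 counts (-2.46, interval -3.97 to -1.26). Mx1 stood at -2.90 without CO replicate 3. Ifi27, the most abundant of the list, differed little at 767 CPM in NC and 688 CPM in CO (log2 ratio -0.16, interval -0.36 to 0.04). In microglia 5 of 10 interferon-stimulated genes compared had a log2 ratio above 0, with a median of 0.03. Border macrophages had 4 of 18 at least 2-fold lower in CO, beside 7.31% of all genes, and 1 at least 2-fold higher. Their median was -0.30, with 7 of the 18 above 0, so a lower list was not confined to the members.

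The interferon list was lower within cluster 0 as well, where 10 of 16 were at least 2-fold lower beside 1053 of all 2923 genes compared there (median log2 ratio -1.21 against -0.51). In cluster 2, 2 of 5 were at least 2-fold lower, beside 376 of all 1742 genes (21.6%). Without members with neutrophil markers 6 of 18 were 2-fold lower, beside 19.2% of all genes, and 7 had a log2 ratio above 0 (median -0.56), and without members with other-lineage markers 8 of 16 were 2-fold lower, beside 20.0% of all genes. The median was -0.92 without NC replicate 1 and -0.85 without CO replicate 3.

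Promoters of the list were read from RefSeq (build GRCr8, 250 bases before to 50 after the start of each gene), to show the sequence shared by genes that were 2-fold lower and genes that were not. The motif searched, the core of the interferon-stimulated response element, is GAAA, any 2 bases and GAAA, or on the other strand TTTC, any 2 bases and TTTC. It was found in 9 of the 14 promoters that were matched among the 18 genes compared, against 3.77% of all 27457 genes. Of those 9 genes 5 were at least 2-fold lower in CO, and of the 5 without a match 3 were, which are Mx1, Oasl and Herc6. A match is a description of letters and not of binding. Examples that both hold the motif 2 times, Ifi44 (chr2:243303791-243304090, minus strand, log2 ratio -2.46) and Ifi27 (chr6:128355062-128355361, plus strand, -0.16), are printed 5′ to 3′ with the matches in capitals.
Ifi44: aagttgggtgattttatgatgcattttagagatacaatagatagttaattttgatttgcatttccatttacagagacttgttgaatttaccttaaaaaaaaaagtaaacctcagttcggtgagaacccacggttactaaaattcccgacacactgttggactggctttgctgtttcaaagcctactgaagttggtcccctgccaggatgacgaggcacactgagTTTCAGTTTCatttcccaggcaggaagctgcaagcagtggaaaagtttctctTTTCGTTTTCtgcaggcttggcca
Ifi27: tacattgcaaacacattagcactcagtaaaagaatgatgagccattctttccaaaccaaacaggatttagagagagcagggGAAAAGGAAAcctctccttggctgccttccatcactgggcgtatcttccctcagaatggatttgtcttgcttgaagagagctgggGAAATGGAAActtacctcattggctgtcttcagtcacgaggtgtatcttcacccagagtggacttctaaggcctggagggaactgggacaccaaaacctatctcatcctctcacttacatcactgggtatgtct

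Antigen presentation genes and complement and Fc receptors were more often lower than higher in CO. Of 11 antigen presentation genes compared, 5 were at least 2-fold lower and 1 higher, beside 13.3% and 13.2% of all genes (median -0.68). Tap1, the peptide transporter, stood at -1.83 (-3.03 to -0.81) and Psmb10, an immunoproteasome subunit, at -1.81 (-2.51 to -1.17). Tap1 stood at -2.55 without CO replicate 1. Without members with neutrophil markers it stood at -0.83. B2m, the light chain of MHC class I, was the most abundant and stood at 5752 CPM in NC and 6446 CPM in CO (log2 ratio 0.16, interval 0.10 to 0.23). Of 13 complement and Fc receptor genes compared, 6 were at least 2-fold lower and none 2-fold higher, beside 13.3% and 13.2% of all genes (median -0.83). Without members with other-lineage markers 3 of 13 were 2-fold lower and 1 higher, beside 20% and 11.1% of all genes. Without members with neutrophil markers 6 of 13 were 2-fold lower, beside 19.2%. In cluster 0, 7 of 12 were, beside 36% of all genes, and in cluster 2, 2 of 8, beside 21.6% (median -0.03). Cd55, decay-accelerating factor, which protects cells from complement, measured 1534, 1231 and 1872 CPM in the NC libraries against 537, 287 and 317 CPM in the CO libraries, with no overlap (log2 ratio -2.04, interval -2.29 to -1.81). It stayed on the same side within cluster 0 (-1.44) and cluster 2 (-1.53). Fcgr3a, the Fc receptor CD16 of non-classical monocytes, stood at 366 CPM in NC and 118 CPM in CO (log2 ratio -1.63, interval -2.08 to -1.20). Fcgr3a stood at -2.48 without CO replicate 1 and -0.93 without CO replicate 3. Fcer1g, the common Fc receptor signalling chain, stood at -0.41 (-0.55 to -0.28).

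Regulators of monocyte identity were more often lower than higher in CO. Of 26 transcription factors and growth factor receptors compared, 7 were at least 2-fold lower and 2 higher, beside 13.3% and 13.2% of all genes. With members left out, the share lower was near that of all genes. Without members with other-lineage markers 5 of 25 were 2-fold lower, beside 20% of all genes (median -0.01). Without members with neutrophil markers 5 of 24 were, beside 19.2% (median -0.17). In cluster 2, 2 of 17 were 2-fold lower and 4 higher, beside 21.6% and 17.6% of all genes. Pou2f2, a transcription factor of non-classical monocytes, measured 241, 344 and 185 CPM in the NC libraries against 103, 75.5 and 87.9 CPM in the CO libraries, with no overlap (log2 ratio -1.52, interval -2.05 to -1.02). The ratio was below 0 within cluster 0 (-1.15) and within cluster 2 (-3.71). Klf2, a factor of quiescent leukocytes, stood at -1.62 (-2.60 to -0.76) and Il17ra, the interleukin 17 receptor, at -1.61 (-1.99 to -1.25). Cebpb, a factor needed for non-classical monocytes in mice, was the most abundant and stood at 5839 CPM in NC and 4149 CPM in CO (log2 ratio -0.49, interval -0.57 to -0.41). Of the apoptosis list, 4 of 14 were at least 2-fold higher and 1 lower, beside 13.2% and 13.3% of all genes. Bcl2l11, which encodes the death factor BIM, stood at 2.15 (1.62 to 2.70), with UMIs in 26 of the 155 NC members and 7 of the 37 CO members, and at -1.80 without members with neutrophil markers.

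Lysosomal genes and genes of macrophage differentiation and lipid handling differed in both directions. Of 21 lysosomal genes compared, 1 stood 2-fold or more higher and 3 lower, beside 13.2% and 13.3% of all genes (median log2 ratio 0.28). Without members with other-lineage markers 5 of 21 stood 2-fold higher and 1 lower (median 0.64), beside 11.1% and 20% of all genes. Ctsc, the protease that activates granule serine proteases, stood at 2.45 (1.89 to 3.04) and at -1.06 without members with neutrophil markers. Ctsc stood at 1.83 without CO replicate 3. Psap, the precursor of the saposins, was the most abundant at 1021 CPM in NC and 1356 CPM in CO (log2 ratio 0.41, interval 0.25 to 0.56). Of 9 genes of macrophage differentiation and lipid handling compared, 3 stood 2-fold or more higher and 2 lower in CO, beside 13.2% and 13.3% of all genes (median log2 ratio -0.09). Apoe stood at 2.04 (1.86 to 2.21) and at 0.33 without members with other-lineage markers. Pparg, a lipid-sensing nuclear receptor, stood at -1.47 (-2.09 to -0.90). Apoe stood at 3.005 without NC replicate 3 and at 0.75 without CO replicate 3. Of the 30 CO counts of Pparg, 20 came from 1 member. Pparg stood at -2.54 without CO replicate 2 and -0.66 without CO replicate 3. Lgals3, galectin 3, stood at 1.08 (0.77 to 1.40). Lgals3 stood at 0.70 without CO replicate 2. Without members with neutrophil markers Pparg stood at -0.35 and Lgals3 at 0.69.

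**Figure D4:**
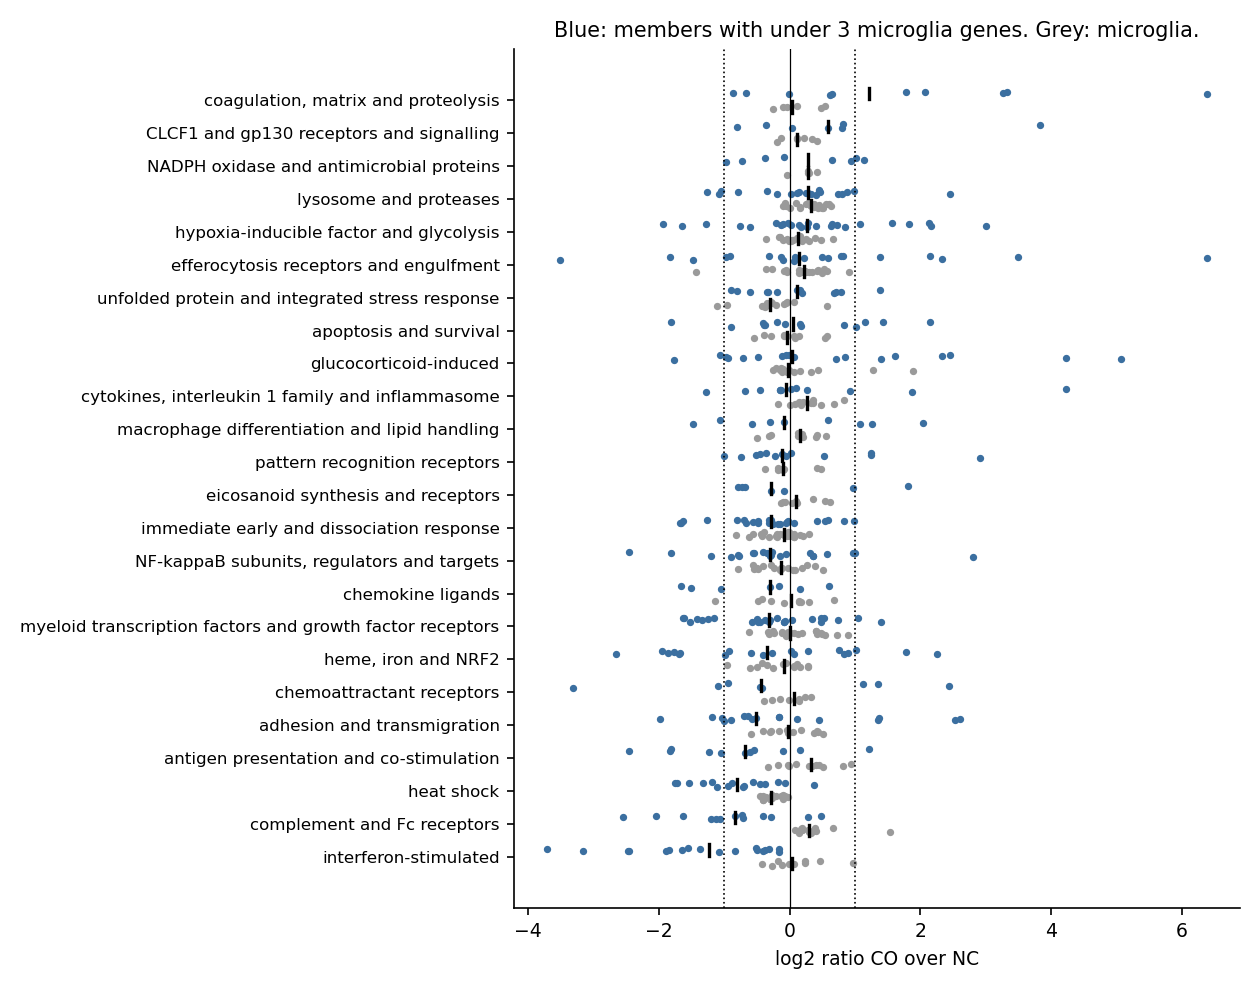
Log2 ratios CO over NC of the compared genes of each list with at least 5 such genes, 1 point per gene, in the members with fewer than 3 microglia genes (blue) and in microglia (grey); black ticks are medians and dotted lines mark 2-fold. The interferon-stimulated list lies lowest (median -1.23) and the coagulation and matrix list highest (median 1.22), while the microglia points stay mostly within 2-fold.

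Outside the lists, the genes with the largest differences and no overlap between libraries included genes seen in clusters 0 and 2 and genes absent from both. Neu1, a lysosomal sialidase, had 1, 1 and 3 counts in the NC libraries against 10, 11 and 13 in the CO libraries (log2 ratio 3.67, interval 2.31 to 5.38), in 4 of the 155 NC members and 21 of the 37 CO members. Neu1 stood at 4.45 without NC replicate 3. Fbxo30, a ubiquitin ligase subunit, had 1 NC and 35 CO counts in 10 members. Gria2, Adamts9, Cgnl1, Slc38a3, P4ha2, Lifr and Cttnbp2nl, with log2 ratios from 3.60 to 5.86, had no count in clusters 0 and 2 of either group. Several of these moved when 1 library was left out. Lifr stood at 5.43 without NC replicate 1 and at 2.57 without CO replicate 3. Adamts9 stood at 3.165 without CO replicate 1, and Slc38a3 at 5.61 without NC replicate 1.

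Among the lowest, Zc3h12d, an RNA-degrading regulator of inflammation in mice, measured 318, 219 and 300.4 CPM in the NC libraries against 7.36, 22.7 and 11.7 CPM in the CO libraries (log2 ratio -4.37, interval -5.83 to -3.22), and within cluster 0 it had 194 NC and 1 CO counts. Plcg2, a phospholipase that relays Fc and lectin receptor signals, had 25, 24 and 40 counts in the NC libraries against 1, 0 and 1 in the CO libraries (-4.57, interval -7.64 to -2.68). Arhgap22 (-5.82, interval -11.14 to -3.31), a regulator of the GTPase Rac, and Ust (-5.54, interval -10.86 to -3.02), a sulfotransferase of matrix sugars, had 1 CO count each against 106 and 87 NC counts. Rdm1, Slc38a9, Vopp1, Adcy9 and Cerk had 1 or 2 CO counts against 52 to 66 NC counts. Rgs5 and Il1rapl1 had no count in cluster 2, and 83 of the 102 NC counts of Rgs5 came from 1 member. All CO counts of Arhgap22, Ust, Rdm1, Slc38a9, Adcy9 and Cerk came, gene by gene, from 1 member of CO replicate 1, so these genes were at 0 in CO without it.

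Set beside microglia of the same libraries, more genes of the monocyte-like members passed 2-fold between CO and NC, at a much lower depth. In microglia 0.611% of 4586 genes compared were at least 2-fold higher and 1.66% at least 2-fold lower, and 4002 NC and 3648 CO cells stood behind those values against 155 and 37 members. Border macrophages, with 396 NC and 277 CO cells, had 3.93% higher and 7.31% lower. The difference of the log2 ratios from microglia was -2.91 (-3.64 to -2.18) for Oasl, -2.19 (-3.02 to -1.37) for Herc6 and -2.12 (-2.48 to -1.77) for Itga4, with intervals from the counts alone. It was 1.32 (0.84 to 1.79) for Cd14, 2.09 (1.80 to 2.39) for Anxa1 and 2.31 (2.08 to 2.54) for Prdx5. Vcan was higher in CO in both cell types, at 3.33 in the members and 3.08 in microglia, a difference of 0.25 (-0.22 to 0.72), from microglial levels of 2.61 and 22.1 CPM. Cd55 was lower in both, at -2.04 and -1.58. Cxcr4 was lower in CO members and higher in CO microglia, at 2.42, and the difference was -3.36 (-3.75 to -2.97).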

How the data were processed

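Libraries were 3 NC and 3 CO (10x Genomics). Whole-number UMI counts per gene and barcode were used as deposited. Per the submitters' processing notes the authors ran Cell Ranger against the rat genome build Rnor_6.0, with no version stated there. The count tables hold 15227 genes. Members and gene lists were chosen with earlier results of these data known.

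Member counts were summed per library and group, and divided by totals scaled with edgeR's TMM factors (edgeR 4.0.16, R 4.3.3) to give CPM. A CO to NC ratio has an exact binomial 95% interval. It covers counting error only, and since cells also vary it is too narrow: over libraries the dispersion was 0.146 in members with fewer than 3 microglia genes. Ratios against 0 counts use a floor of 3 counts over the group. Genes with at least 30 counts and a mean log2 CPM of at least 5 were compared. Named genes were the 12 highest and 12 lowest with non-overlapping libraries and intervals excluding equal levels, up to 4 of largest ratio and the most abundant per list, and 8 genes of the study's question. That rule was written for all members, and it was applied to the members with fewer than 3 microglia genes too. A few genes that the rule names are not reported here. Other genes named are cluster, marker or leading genes. Genes named from a list had at least 30 counts, and the genes of the question no minimum. Some of both are below the expression filter and outside the counts of genes compared.

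Shares have exact Clopper-Pearson intervals. Doublets were scored with Scrublet in scanpy 1.11.5 (in CO, where it marked at most 2 barcodes a library, the highest 6% of scores), and members scored as doublets were kept in the values reported. Members were clustered with Leiden (leidenalg 0.10.2, resolution 0.5) on 1000 variable genes. Intervals and edgeR's test were tested on simulated data. Alternatives were edgeR and DESeq2 1.42.0 over libraries, other scalings, filters, thinning, member definitions and leaving out each library. The check of pairing is given with the alternatives.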

Additional observations from a re-analysis of the deposited data

Results flagged for a closer look

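In each of these 4 genes all CO libraries lay on one side of all NC libraries in members with fewer than 3 microglia genes and on the other side in microglia, so every CO library moved oppositely in the 2 cell types. The difference was not tested. Gria2, a glutamate receptor subunit, had log2 ratios of 5.86 in the members and -0.85 in microglia, and no count in clusters 0 and 2. Arhgap22 had -5.82 and 0.56, Cxcr4 -0.94 and 2.42, and Nfkb1 -0.79 and 0.51. In microglia Gria2 and Cxcr4 were below the expression filter, with 13.6 and 7.50 CPM and with 2.83 and 15.1 CPM in NC and CO, and the CO and NC libraries did not overlap for 33.5% of genes above and 22.6% below. Outliers among samples were not looked for, since each group has 3 libraries.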

How the results depend on the processing

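The share ratio of all members (0.617) stayed below 1 under every alternative run, and was 0.296 with at least 4 rule genes required and 0.266 without members with 3 or more microglia genes. That of members with fewer than 3 microglia genes (0.266) was 0.168 without members with neutrophil markers and 0.479 with thinned barcodes. Leaving out 1 library gave 0.563 to 0.668 and 0.245 to 0.295.

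Counts of genes 2-fold higher and lower (558 and 506 in all members, 643 and 649 in the others) were 75 and 251, and 61 and 211, with thinned barcodes. They were 1593 and 1567, and 1431 and 1695, with at least 10 counts and no CPM minimum, and 142 and 118, and 125 and 143, with a mean log2 CPM of at least 7. With 4 rule genes 850 genes were lower over all members. Without members with other-lineage markers, 417 of 3759 genes (11.1%) were higher and 751 (20%) lower among members with fewer than 3 microglia genes. With thinned barcodes 954 genes were compared in that set, 6.39% higher and 22.1% lower. Without thinning the shares there were 13.2% and 13.3% of 4864 genes. Single libraries left out gave 539 to 624 higher and 516 to 595 lower in all members, and 606 to 701 and 657 to 809 in the others. The 3 other scalings gave 477 to 578 and 487 to 618, and 605 to 650 and 631 to 682.

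Taken over the 6 libraries, edgeR's quasi-likelihood test (Benjamini-Hochberg adjusted p under 0.05) called 257 genes in all members and 33 in the others, with 722 at an unadjusted p under 0.05 in the latter. The replicate block gave 140 and 0 calls (583 at an unadjusted p under 0.05), no filter beyond 1 count 542 and 298, and DESeq2 122 in the members with fewer than 3 microglia genes. Leaving out 1 library gave 10 to 319 and 0 to 164. Without CO replicate 2 the 2 sets had 10 calls and 1 call, and without NC replicate 1, 2 or 3 the second had 0, with 556, 533 and 596 genes at an unadjusted p under 0.05. Same-numbered NC and CO libraries correlated at 0.009, -0.036 and 0.074 in all members and at -0.157, -0.081 and -0.020 in the others, so the numbers do not pair the samples.

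Leaving out members with 3 or more microglia genes was planned. Running the other alternatives within that set, values within clusters and values without other-lineage members were chosen after seeing the data. Of values at least 2-fold apart, these changed sign; the cause was not tested. The chemokine ligand median over all members was -0.29 without members with microglia genes, -0.074 in cluster 0 and -0.30 in cluster 2. Over all members Ch25h was -1.21 without microglia-gene members, and Nfkb1 -0.79 there and -0.60 in cluster 0. In members with fewer than 3 microglia genes, cluster 0 gave -1.21 for the coagulation list median, -0.65 for Trem1, -0.81 for Ctsc, -0.28 for Apoe, -1.43 for Fn1 and -0.31 for Bcl2l11, and cluster 2 gave -0.72 for Pla2g7. Without neutrophil markers Ctsc was -1.06 and Bcl2l11 -1.80. Thinned barcodes gave 0.10 for Klf2, 4 rule genes 0.30 for Fcgr3a and -1.24 for Lgals3, and removal of Scrublet doublets -0.14 for Apoe. Smaller values changed sign too, among them Ccl3, Ccl2, Nfkbia and the efferocytosis median, as given with them above. Clusters 0 and 2 of CO hold 13 members each, which limits every value within them.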

Other observations

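Eicosanoid genes were not described above. Pla2g7, which encodes the enzyme that breaks down platelet-activating factor, was higher in CO among the members with fewer than 3 microglia genes, at 58.4 CPM in NC and 205 CPM in CO (log2 ratio 1.81, interval 1.29 to 2.35). Ptger4, a receptor for prostaglandin E2, had 38 NC and 3 CO counts (-2.76, interval -5.10 to -1.10). Ptger4 stood at -3.83 without CO replicate 2 and -1.95 without CO replicate 3. Of 7 eicosanoid genes compared, 1 was at least 2-fold higher and none lower, beside 13.2% and 13.3% of all genes. Ptger4 was below the expression filter and is not among the 7. Among proliferation genes only 3 had counts enough to be compared, and Hmgb2, a chromatin protein, stood at -1.69 (-2.13 to -1.28). Hmgb2 stood at -2.29 without CO replicate 1.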
